A study of Mus musculus with 4 samples.

Results

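The lysosome and autophagy genes described here are 37 genes that encode hydrolases of the lysosome, proteins of its membrane, subunits of its proton pump, the autophagy machinery, the transcription factor Tfeb and the trafficking regulator Lyst. Their members were listed by name, and every array probe whose accession belonged to a listed gene was taken. This gave 58 probes, of 41174 distinct probes on the array, which name 16531 genes in all. Of the 37 genes, 18 had 1 probe, 17 had 2 probes and Ctsa and Atg12 had 3 probes. Lyst was put in the list because it was already known to be lower in SAMP8 on these arrays, so its strain ratio is a description.

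Messenger RNA of whole brain was compared between SAMP8, a mouse strain that ages early, and SAMR1, its senescence-resistant control strain. The labels give the background of both strains as AKR/J with suspected outbreeding to an unknown line. The 3 groups were SAMP8 mice fed a diet with whale meat extract (WME, from the red meat of Antarctic minke whale), SAMP8 mice fed the control diet with low safflower oil (LSO), and SAMR1 mice fed the LSO diet. The diets ran for 26 weeks from 24 weeks of age, mice went through behavioural tests for 8 days at 49 weeks, and all were 50 weeks old. No SAMR1 RNA on the WME diet was analysed here, so the diets are compared in SAMP8 only. Each RNA pair was hybridised to 2 two-colour arrays with Cy3 and Cy5 exchanged: arrays 1 and 2 set WME against LSO within SAMP8 (the diet pair), and arrays 3 and 4 set SAMP8 against SAMR1 on LSO (the strain pair). The SAMP8 LSO group stands in both pairs, so the 2 sets of ratios share a control group. The number of mice behind an RNA, and whether mice were pooled, are not given in the sources used here. The labels do not say whether 1 extract of SAMP8 LSO served both pairs, and it was treated here as 1 group. There is 1 RNA per group within each pair and no replicate check, no p-values are given, and the SD beside a ratio is over the 2 dye orientations of the same RNAs.

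The lysosome is the acidic organelle in which cells break down macromolecules taken up from outside or delivered from inside. Macroautophagy is the route from inside: a membrane cup forms around cytoplasm, closes and fuses with the lysosome. TFEB and its relatives bind a short DNA element, called CLEAR, in the promoters of many lysosomal genes and raise their transcription together. LYST is a very large protein of the BEACH domain family that governs the size and movement of lysosomes and related granules, and its loss causes Chediak-Higashi syndrome in humans and the beige coat in mice. Inherited loss of many of the hydrolases listed here causes lysosomal storage in neurons, which is why this pathway is followed in brain.

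The core of the CLEAR element is the palindrome CACGTG, which reads the same on both strands, so 1 search covers both strands. RefSeq promoter windows of assembly GRCm38.p6, which reach from 250 bases before to 50 bases after a transcript start, were at hand for 31 of the 37 genes, 36 windows in all. CACGTG was found in 13 of these 36 windows (36.1%), in 13 genes, against 7.15% of the 32851 promoter windows of all genes. The longer form TCACGTGA, which holds CACGTG within it, was found in 7 windows (19.4%) against 0.974% of all windows. The longest form searched, TCACGTGA with G before it and C after it, was found in the Cln3 window only (2.78%) against 0.326% of all windows. The member windows had a median GC content of 59.2% and all windows 52.7%, and this difference moves with the motif counts in a way that was not tested. A match is a string of letters in a window and does not show that a factor binds there.

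The stretches of 30 bases below are shown because they carry the longer form TCACGTGA of the element, which is in capitals. They are the only 9 matches, in 7 genes, with Ctsa and Gla holding 2 each. All are written 5′ to 3′ on the strand of the gene.
Atg3 (chr16:45158746-45158775, + strand): ggagagtcgagTCACGTGAggccttaggtg
Atp6v0d1 (chr8:105566050-105566079, - strand): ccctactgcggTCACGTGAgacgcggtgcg
Cln3 (chr7:126583340-126583369, - strand): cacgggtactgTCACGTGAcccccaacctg
Ctsa (chr2:164833749-164833778, + strand): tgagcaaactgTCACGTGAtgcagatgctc
Ctsa (chr2:164833766-164833795, + strand): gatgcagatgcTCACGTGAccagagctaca
Ctsd (chr7:142387908-142387937, - strand): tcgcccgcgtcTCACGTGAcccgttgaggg
Gla (chrX:134601182-134601211, - strand): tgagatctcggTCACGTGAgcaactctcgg
Gla (chrX:134601215-134601244, - strand): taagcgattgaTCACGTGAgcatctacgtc
Mcoln1 (chr8:3500462-3500491, + strand): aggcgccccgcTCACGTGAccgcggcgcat

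The Atp6v0d1 match began 4 bases before the transcript start, the first Ctsa match 13 bases and the Mcoln1 match 46 bases before it. The matches of Atg3, Ctsd and Cln3 began 72, 99 and 122 bases before the start, and those of Gla 195 and 228 bases before it. The second Ctsa match began 5 bases into the transcript. The matches thus lay at no common distance from the start.

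Whole promoter windows are printed for 3 genes, with CACGTG in capitals. Lyst is shown because its ratio was the largest of the list, Glb1 because both of its probes were higher in SAMP8, and Ctsd because its window held CACGTG at 2 places.
Lyst (chr13:13590159-13590458, + strand): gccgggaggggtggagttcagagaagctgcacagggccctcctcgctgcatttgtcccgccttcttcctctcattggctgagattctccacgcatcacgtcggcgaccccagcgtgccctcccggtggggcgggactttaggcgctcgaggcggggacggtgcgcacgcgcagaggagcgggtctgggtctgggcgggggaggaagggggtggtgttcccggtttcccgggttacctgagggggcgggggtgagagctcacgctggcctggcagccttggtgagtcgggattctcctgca
Glb1 (chr9:114400828-114401127, + strand): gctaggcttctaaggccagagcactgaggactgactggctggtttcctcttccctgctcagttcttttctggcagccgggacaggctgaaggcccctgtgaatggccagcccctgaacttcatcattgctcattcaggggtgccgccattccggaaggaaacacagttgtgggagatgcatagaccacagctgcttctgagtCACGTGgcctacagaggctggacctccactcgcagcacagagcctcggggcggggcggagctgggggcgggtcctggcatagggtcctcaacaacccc
Ctsd (chr7:142387778-142388077, - strand): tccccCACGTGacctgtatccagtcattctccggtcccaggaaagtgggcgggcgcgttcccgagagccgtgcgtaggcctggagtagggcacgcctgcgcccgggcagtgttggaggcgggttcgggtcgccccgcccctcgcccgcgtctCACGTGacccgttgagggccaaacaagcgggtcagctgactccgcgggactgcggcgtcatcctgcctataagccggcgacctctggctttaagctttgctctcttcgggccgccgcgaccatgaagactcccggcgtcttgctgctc

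The Lyst window held 0 copies of CACGTG. The Glb1 window held 1 copy and the Ctsd window 2 copies. That these letters are missing from the Lyst window says nothing about any factor outside it.

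All 58 probes were well above background in both RNAs of each pair on both arrays. A probe is named as called here if each array of a pair put it past 1.5-fold with the same sign. In the strain pair 1 of the 58 member probes was called, that of Lyst, which was lower in SAMP8. Of the 34020 probes measured in that pair 1.43% were called in either direction and 0.52% were called lower. In the diet pair 0 of the 58 member probes were called, and 0.08% of the 33739 probes measured there were called (0.0563% higher and 0.0237% lower). Both comparisons have 1 RNA a group, so no test stands behind these counts. A single array gave other counts. The share of all measured probes past 1.5-fold on 1 array was not counted, so these counts have no background beside them. Without array 3, 3 member probes of the strain pair lay past 1.5-fold (Lyst, a bright Grn probe and a Ctsd probe), and without array 4, 2 did (Lyst and Grn). Without array 1, and likewise without array 2, 1 member probe of the diet pair did, that of Grn.

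Lyst had a single probe, A_51_P150722. Its normalised log2 signal was 8.13 and 8.44 in SAMP8 WME on arrays 1 and 2. In SAMP8 LSO it was 8.22, 8.38, 8.19 and 8.20 on arrays 1 to 4. In SAMR1 LSO it was 10.14 and 9.94 on arrays 3 and 4. The 6 SAMP8 values lay within 8.13 to 8.44 and did not overlap with either SAMR1 value, whatever the diet or the dye. The channels of a pair are repeat readings of 1 RNA per group, and those of arrays 1 and 2 hold no SAMR1 RNA. The share of all measured probes whose channels separate in this way was not counted. Here and for the probes below, such a separation is therefore a description only. In whole tissue, fewer cells of a type that holds a transcript and less of that transcript per cell cannot be told apart.

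The strain ratio of Lyst, SAMP8 over SAMR1, was −1.95 on array 3 and −1.75 on array 4 (mean −1.85, SD 0.14), a 3.60-fold lower signal in SAMP8. Counted from the lowest, this was place 17 among the 34020 measured probes. The size of the difference moved with the background correction of this dim probe. The mean was −2.01 with a normexp offset of 10 and −2.19, or 4.55-fold, with the processed signals of the scanner program. The diet ratio, SAMP8 WME over SAMP8 LSO, was −0.08 and 0.05 (mean −0.02, SD 0.10), so the dye orientations gave opposite signs. The plot of signals by RNA shows Lyst beside the other probes with values given in every channel.

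**Figure D1:**
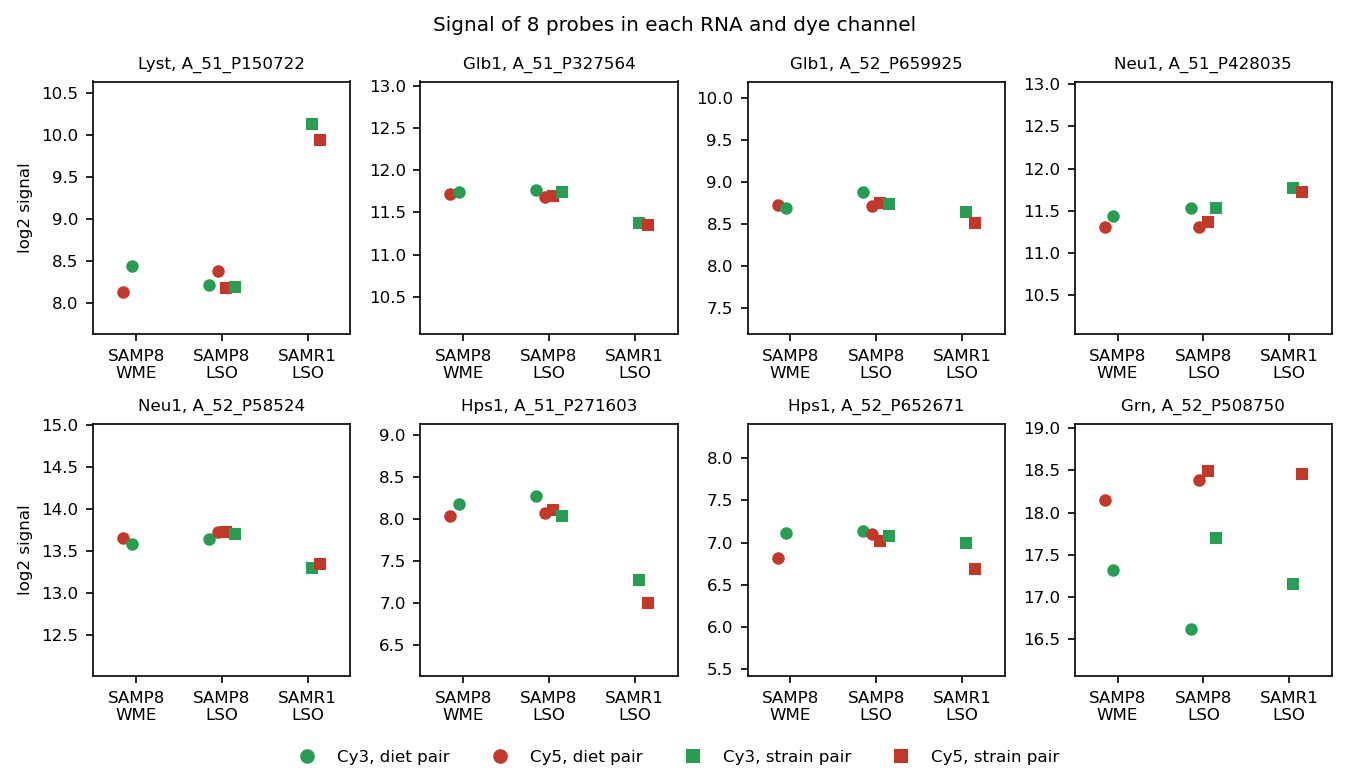
Normalised log2 signal (y axis, each panel 3 log2 units high) of 8 probes in SAMP8 WME, SAMP8 LSO and SAMR1 LSO RNA (x axis), with 1 point for each array and dye channel and no error bars. The SAMR1 points of Lyst lie at 10.14 and 9.94, above all SAMP8 points (8.13 to 8.44), the 2 Neu1 probes move in opposite directions between the strains, and the Grn points follow the dye.

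The genes beside Lyst on mouse chromosome 13 were read in RefSeq gene order, 5 on each side. They were looked at after the values of Lyst were seen. Of these 10 genes, 8 had measured probes, 11 in all, and 4 probes of 2 genes were called lower in SAMP8, where 0.52% of all measured probes were. The prolactin family gene Prl2c5 had strain ratios of −0.85 ± 0.09 and −1.42 ± 0.21 (SD, 2 arrays), but near-identical copies of it exist and its probes may read them too. Ggps1, which makes geranylgeranyl diphosphate, had ratios of −0.75 ± 0.18 and −0.62 ± 0.00. The neighbours of Lyst thus included called probes on both of its sides.

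Other neighbours went the opposite way or showed little difference. Nid1, a basement membrane gene directly before Lyst, had a strain ratio of 0.67 ± 0.27, and Gpr137b, a lysosomal membrane protein gene, 0.65 ± 0.38, both under 1.5-fold on array 4. Gng4, a G protein subunit gene directly after Lyst, had −0.61 ± 0.08, with −0.55 on array 3 just short of 1.5-fold. Tbce stood at 0.03 ± 0.02, B3galnt2 at −0.12 ± 0.41 and the 2 Arid4b probes at −0.39 ± 0.00 and 0.01 ± 0.13. The mean diet ratios of the same 11 probes lay between −0.14 and 0.11. The window therefore holds strain ratios of both signs, as the plot of neighbouring genes shows.

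**Figure D2:**
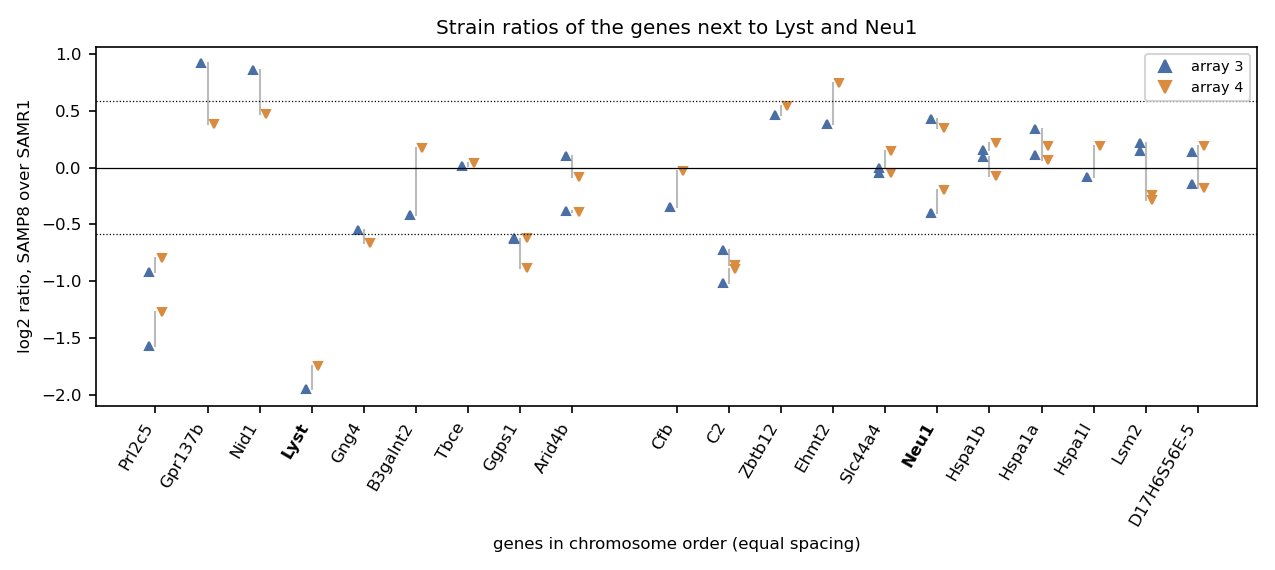
Strain log2 ratio (y axis, SAMP8 LSO over SAMR1 LSO) of the measured probes of the genes next to Lyst (left) and Neu1 (right), placed in chromosome order at equal spacing (x axis), with 1 point per array, a grey line joining the arrays of a probe and dotted lines at 1.5-fold. Around Lyst the called probes of Prl2c5 and Ggps1 lie below the lower dotted line, and around Neu1 those of C2 do.

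The other 36 genes, with 57 probes, had mean strain ratios between −0.30 and 0.39 and an SD over probes of 0.114, where all measured probes had 0.198. Their median was 0.020, and −0.031 with each array centred on its median in place of loess, so the list as a whole has no settled direction. The median over all measured probes was −0.003 with loess and −0.020 with centring. Of all 58 probes, 17 were above 0 on both strain arrays and 7 below, and 34 had opposite signs on the 2 arrays. Over all measured probes 25.2% were above and 25.6% below on both. A mean strain ratio within 0.1 of 0 was found for 38 of the 58 probes (65.5%), against 70.5% of all measured probes.

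Between the diets the 58 probes lay closer together. Their mean ratios ran from −0.093 to 0.23, and 57 of 58 were within 0.1 of 0, as were 88.3% of all measured probes. On both diet arrays 9 were above 0 and 5 below, against 20.4% and 17.1% of all measured probes, and 44 had opposite signs. The median was −0.002 with loess, and 0.18 with median centring, where the median of all probes was 0.06. Without array 1 the median was 0.054 and without array 2 −0.038. The sign of the diet shift of this list thus depends on the scaling and on the array, and single diet ratios of its bright probes do too.

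The dye term of a probe is the part of its ratio that changes sign when the dyes are exchanged, and it is larger than the mean ratio wherever the 2 arrays have opposite signs. Opposite signs were found for 21062 of the 33739 probes measured in the diet pair and 16762 of the 34020 measured in the strain pair, beside the member counts above. After the sign was turned, the ratios of the 2 diet arrays had a correlation of −0.93 over the 57 probes other than Lyst and −0.29 over all measured probes. For the strain arrays these values were −0.47 and 0.57. These are correlations across probes of the same 2 RNAs and describe the arrays only. The bright Grn probe is among the 57 and lies far from the others. It stood at 1.53 and −1.07 on the diet arrays and at 1.35 and −0.77 on the strain arrays. The correlations were not computed without it, so they do not describe the list as a whole. Technical error was read by subtracting a probe's dye term in the strain pair from that in the diet pair and dividing by the square root of 2, a value in which neither the RNAs nor a steady dye bias remain. Its SD was 0.048 over the 58 probes, 0.043 without the bright Grn probe, and 0.050 over all probes measured in both pairs.

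**Figure D3:**
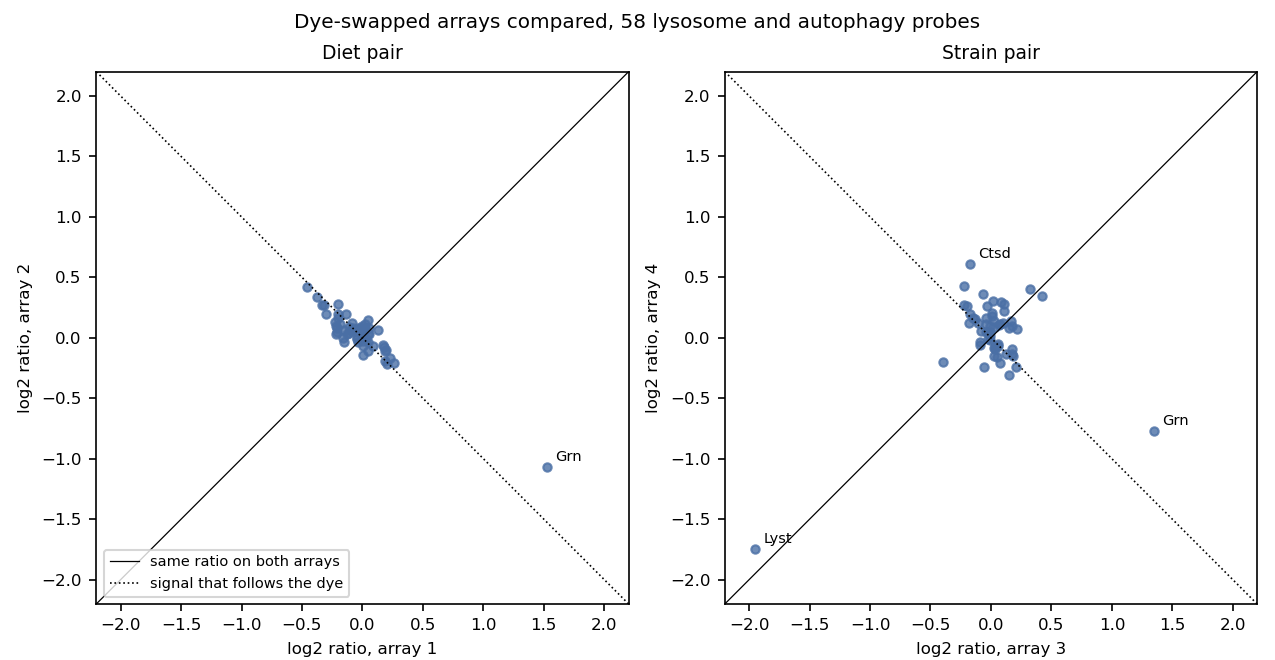
Log2 ratio of each of the 58 probes on the first array of a pair (x axis) against the dye-swapped array (y axis), both turned to the same direction, for the diet pair (left) and the strain pair (right). Lyst lies near the solid line of equal ratios at −1.95 and −1.75 in the strain pair, whereas the bright Grn probe lies near the dotted line of signal that follows the dye in both pairs.

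Among the proteins of the lysosomal membrane and of lipid export (Lamp1, Lamp2, Npc1, Npc2, Cln3, Scarb2, Mcoln1) 0 of 9 probes were called in either pair. Npc2, which binds cholesterol inside the lysosome and hands it to the membrane protein Npc1, had the highest strain ratio, 0.17 and 0.14 on the arrays (mean 0.15, SD 0.02), and a diet ratio of −0.03 ± 0.11. Npc1 itself had strain and diet ratios of 0.00 ± 0.08 and 0.03 ± 0.03. Scarb2, the receptor that carries glucocerebrosidase to the lysosome, had strain ratios of 0.14 ± 0.05 and 0.11 ± 0.14 from its 2 probes, above 0 on both arrays with each. Cln3, a membrane protein lost in juvenile Batten disease, had the lowest strain ratio of the class, −0.07 ± 0.20, and the highest diet ratio, 0.10 ± 0.04. Its signal was 10.85 and 10.79 in SAMP8 WME, between 10.72 and 10.76 in the 4 SAMP8 LSO channels, and 10.69 and 10.92 in SAMR1, so the SAMR1 channels enclosed all the others.

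Lamp1 and Lamp2 are the abundant glycoproteins that coat the inner face of the lysosomal membrane. Lamp1 had ratios of −0.01 ± 0.09 (strain) and 0.01 ± 0.06 (diet). The 2 Lamp2 probes had strain ratios of 0.04 ± 0.11 and 0.02 ± 0.22. Mcoln1, the calcium channel of the lysosomal membrane, had 0.03 ± 0.35, made of −0.22 and 0.28 on the 2 arrays. The class median of the strain ratios was 0.027 with loess and −0.021 with median centring. For these membrane proteins the strain difference was at most 1.11-fold.

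The cathepsins and other peptidases (Ctsa, Ctsb, Ctsd, Ctsl, Ctsz, Tpp1) digest proteins inside the lysosome, and 0 of their 12 probes were called. Ctsd, the main aspartic protease of the lysosome, had the highest strain ratio of the class. With probe A_51_P384629 it was −0.17 and 0.61 on the arrays (mean 0.22, SD 0.55), and with probe A_52_P35960 it was 0.09 and 0.30 (mean 0.19, SD 0.15). The second probe had signals of 12.58, 12.39, 12.37 and 12.52 in SAMP8 LSO on arrays 1 to 4, 12.39 and 12.51 in SAMP8 WME, and 12.29 and 12.22 in SAMR1. All its SAMP8 channels were above both SAMR1 channels, whereas the channels of the first probe overlapped (14.68 to 15.18 in SAMP8, 14.91 and 14.57 in SAMR1). The 2 probes gave similar means, but that of the first rests on 1 dye orientation.

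Ctsz, a carboxypeptidase that is prominent in microglia, was above 0 on both strain arrays with both probes, at 0.14 ± 0.10 and 0.19 ± 0.12. Ctsl, a cysteine protease, had a strain ratio of 0.12 ± 0.21 and the lowest diet ratio of the class, −0.08 ± 0.11. Ctsb, another cysteine protease, had strain ratios of 0.04 ± 0.19 and −0.07 ± 0.02 from 2 probes. Ctsa is the protective protein that holds Neu1 and Glb1 in a complex, and its 3 probes had strain ratios of 0.10 ± 0.46, 0.10 ± 0.12 and −0.08 ± 0.32, the last of them the lowest of the class. Tpp1, the tripeptidyl peptidase lost in late infantile Batten disease, had 0.01 ± 0.04 and −0.03 ± 0.22. The class median of the strain ratios was 0.098, and 0.012 with median centring, so its distance from 0 depends on the scaling.

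The 9 genes of the glycosidases, the thioesterase Ppt1 and the activators Psap and Grn held the strain ratios farthest from 0 after Lyst, but 0 of their 14 probes were called. Glb1 encodes the beta-galactosidase whose activity is stained as a marker of senescent cells. With probe A_51_P327564 its signal was 11.76, 11.69, 11.69 and 11.75 in SAMP8 LSO on arrays 1 to 4 and 11.72 and 11.74 in SAMP8 WME, against 11.37 and 11.35 in SAMR1. The 6 SAMP8 channels lay above both SAMR1 channels, which how many of all measured probes share was not counted. Its strain ratio was 0.32 and 0.40 (mean 0.36, SD 0.05), or 1.28-fold, and it stayed at 0.31 with median centring.

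The second Glb1 probe, A_52_P659925, had signals of 8.87, 8.72, 8.74 and 8.73 in SAMP8 LSO, 8.72 and 8.69 in SAMP8 WME, and 8.64 and 8.51 in SAMR1. Again all SAMP8 channels were above both SAMR1 channels. Its strain ratio was 0.11 and 0.22 (mean 0.16, SD 0.08), smaller than that of the first probe by 0.20. The diet ratios of the 2 probes were 0.01 ± 0.07 and −0.09 ± 0.09 (the latter the lowest mean diet ratio of the list).

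The probes of Neu1, the sialidase that removes terminal sialic acids, disagreed on the strain. With probe A_51_P428035 the signal was 11.53, 11.30, 11.37 and 11.53 in SAMP8 LSO, 11.30 and 11.44 in SAMP8 WME, and 11.77 and 11.73 in SAMR1. With probe A_52_P58524 it was 13.65, 13.73, 13.73 and 13.70 in SAMP8 LSO, 13.65 and 13.59 in SAMP8 WME, and 13.30 and 13.35 in SAMR1. So all SAMP8 channels were below both SAMR1 channels with the first probe and above both with the second.

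The strain ratios of Neu1 were −0.40 and −0.20 (mean −0.30, SD 0.14) with the first probe and 0.42 and 0.35 (mean 0.39, SD 0.05) with the second. With median centring they were −0.36 and 0.30, and with processed signals −0.32 and 0.39. No direction can therefore be given for Neu1 as a gene. The distance of 0.69 between its probes was the only one of 0.5 or more among the 19 genes with several probes, where the next was 0.24 (Grn) and the median 0.048. In the diet pair the Neu1 probes stood at −0.05 ± 0.25 and −0.07 ± 0.10, and the largest distance between probes of any gene was 0.20. Neither probe's sequence was analysed here.

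Neu1 lies in the major histocompatibility region of mouse chromosome 17, and the 10 genes around it were read in the same way as those around Lyst, also after its values were seen. All 10 had measured probes, 16 in all, and 2 were called, where 1.43% of all measured probes were in either direction. Both were of the complement gene C2, at −0.79 ± 0.09 and −0.95 ± 0.09. Zbtb12 and the histone methyltransferase gene Ehmt2 were at 0.50 ± 0.05 and 0.57 ± 0.25. Slc44a4 and the heat shock gene Hspa1b, directly on either side of Neu1, lay between −0.05 and 0.18 in the strain pair.

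Other hydrolases of the class differed less. Hexa, the alpha subunit of beta-hexosaminidase, had a strain ratio of 0.12 ± 0.05, and the beta-glucuronidase Gusb, often used as a reference gene, 0.11 ± 0.02, both above 0 on each array. Gaa, which degrades glycogen, had 0.08 ± 0.08, and the alpha-galactosidase Gla 0.15 ± 0.30 and 0.00 ± 0.06 from its 2 probes. Ppt1, which removes palmitate from proteins and is lost in infantile Batten disease, was the other gene below 0 on both arrays, at −0.05 and −0.24 (mean −0.15, SD 0.13). Psap, the precursor of the saposins that help hydrolases reach lipids, had 0.01 ± 0.20 and −0.01 ± 0.10. The class median of the strain ratios was 0.096, and 0.009 with median centring.

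The readings of the bright Grn probe split by dye channel, and the reason was not tested. Grn encodes progranulin, a precursor of lysosomal granulins. With probe A_52_P508750 the log2 signal was 16.62 to 17.69 in the 4 Cy3 channels and 18.15 to 18.50 in the 4 Cy5 channels, whichever RNA they held. Its diet ratio was 1.53 on array 1 and −1.07 on array 2 (mean 0.23, SD 1.84), and its strain ratio 1.35 and −0.77 (mean 0.29). It was the only member probe past 1.5-fold on both arrays with opposite signs, in each pair. The other Grn probe, A_51_P192800, stood at 0.03 ± 0.23 and 0.05 ± 0.07. The mean diet ratio of the bright probe was the highest of the class but far smaller than the spread between the arrays.

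**Figure D4:**
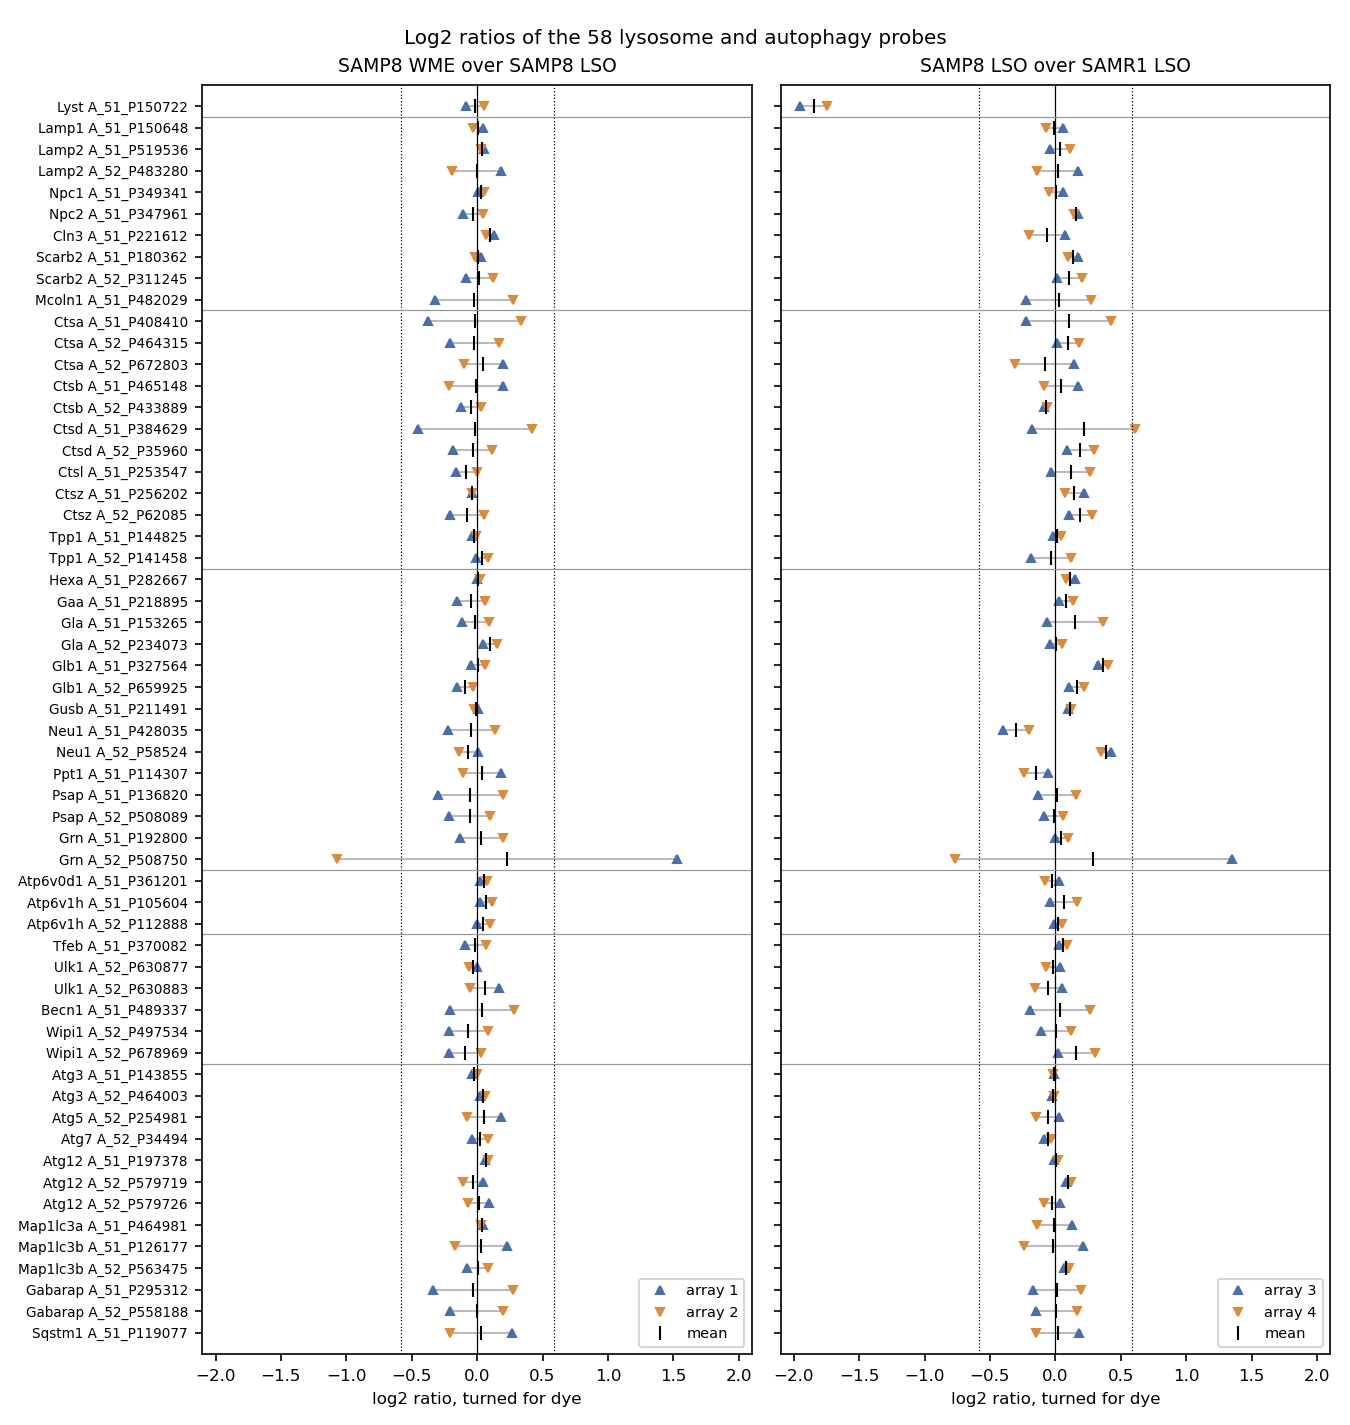
Log2 ratio (x axis) of each of the 58 probes (y axis, grouped by role from Lyst at the top to the autophagy conjugation genes at the bottom) on the 2 arrays of the diet pair (left) and the strain pair (right), with triangles for the arrays, a black bar for their mean and dotted lines at 1.5-fold. Only Lyst in the strain pair has both triangles beyond the same dotted line.

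The lysosome is acidified by the vacuolar proton pump, represented here by its membrane subunit Atp6v0d1 and its regulatory subunit Atp6v1h. Their 3 probes had strain ratios from −0.03 ± 0.07 (Atp6v0d1) to 0.06 ± 0.14 (Atp6v1h, probe A_51_P105604), with opposite signs on the arrays for each. Their 3 diet means were all positive, at 0.05 ± 0.04 for Atp6v0d1 and 0.07 and 0.05 for the Atp6v1h probes, and 2 of the 3 were above 0 on both arrays. These differences were at most 1.05-fold. With median centring the class medians were 0.26 (diet) and −0.05 (strain).

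Autophagy is started by the kinase Ulk1 and by Becn1, part of the lipid kinase complex whose product Wipi1 binds, and Tfeb controls the supply of lysosomal transcripts. None of the 6 probes of these 4 genes was called in either pair. Wipi1 had the highest strain ratio with probe A_52_P678969, 0.02 and 0.30 (mean 0.16, SD 0.20), and the lowest diet ratio, −0.09 ± 0.18, but its other probe stood at 0.01 ± 0.16 and −0.07 ± 0.21. Ulk1 had the lowest strain ratio with probe A_52_P630883, −0.05 ± 0.15, which also had the highest diet ratio, 0.06 ± 0.16. Becn1 had 0.03 ± 0.32 (strain) and 0.04 ± 0.34 (diet). Tfeb, a dim probe with signals from 7.66 to 7.82, had 0.06 ± 0.04 and −0.02 ± 0.11.

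The strain and diet ratios of these genes share the SAMP8 LSO group, which stands on top of the strain ratio and below the line of the diet ratio. If 1 extract served both pairs, a high or low value in it moves them in opposite directions, so opposite signs as those of Wipi1, Ulk1, Cln3 and Npc2 are not read here as 2 independent results. The class median of the strain ratios was 0.020, and −0.028 with median centring.

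The conjugation genes link the ATG8 proteins to the growing membrane (Atg3, Atg5, Atg7, Atg12), and Map1lc3a, Map1lc3b, Gabarap and the cargo receptor Sqstm1 are their substrates or partners. All 13 probes had strain means within 0.1 of 0 and all 13 had diet means within 0.1 of 0. The highest strain ratio was that of Atg12 with probe A_52_P579719, 0.10 ± 0.03, while its other 2 probes stood at 0.00 ± 0.02 and −0.03 ± 0.09. Atg7, the E1-like enzyme of the pathway, had the lowest, −0.06 ± 0.04. Between the diets the Atg12 probes held both ends, 0.07 ± 0.02 with probe A_51_P197378 and −0.03 ± 0.11 with probe A_52_P579719.

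Map1lc3b and Sqstm1, whose proteins are often followed as readouts of autophagy, showed little difference in transcript. Neither their proteins nor autophagy itself was measured here. The 2 Map1lc3b probes had strain ratios of −0.02 ± 0.32 and 0.08 ± 0.03 and diet ratios of 0.03 ± 0.28 and 0.00 ± 0.11. Sqstm1 had 0.02 ± 0.24 (strain) and 0.03 ± 0.33 (diet), with signals of 16.05 and 15.80 in SAMP8 WME, 15.78 to 16.02 in SAMP8 LSO, and 15.84 and 16.07 in SAMR1, so the 3 groups overlapped. Its Cy5 channels were above its Cy3 channels throughout. The class median of the strain ratios was −0.007, and −0.080 with median centring.

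The genes with TCACGTGA in their promoter window could be set beside those without it. The 12 probes of the 7 genes with it had strain ratios from −0.08 to 0.22 with a median of 0.015, and a diet median of −0.016. The 36 probes of the 24 genes whose windows lack it had strain ratios from −1.85 (Lyst) to 0.39 with a median of 0.028, and a diet median of −0.006. With loess the medians of both groups lay within 0.1 of 0 in both pairs. They were not computed with median centring, which moved the diet median of the whole list to 0.18.

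A wider set of genes of the same pathways was read from lists of gene names. The lists were chosen with earlier results of these data known, so they are no independent check. The lists held 162 genes, of which 147 had a probe and 144 a measured one, with 233 measured probes. In the diet pair 0 of the 233 were called, and in the strain pair 1 was called, a probe of Hps1, higher in SAMP8 (0.911% of all measured probes were called higher there). The median ratio over the 233 probes was 0.004 (diet) and 0.002 (strain). With median centring it was 0.155 (diet), where that of all probes was 0.063, and −0.045 (strain).

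Hps1 encodes a subunit of a complex that builds lysosome-related organelles such as melanosomes and platelet dense granules, and its loss, like that of Lyst, affects pigment and granules. With probe A_51_P271603 its signal was 8.27, 8.08, 8.11 and 8.04 in SAMP8 LSO, 8.04 and 8.18 in SAMP8 WME, and 7.27 and 7.002 in SAMR1, so all SAMP8 channels were above both SAMR1 channels. The strain ratio was 0.83 and 1.04 (mean 0.94, SD 0.15), or 1.91-fold, and 1.44 with processed signals. The other Hps1 probe, A_52_P652671, stood at 0.02 and 0.39 (mean 0.20, SD 0.26), so the probes of the gene gave unlike sizes. The diet ratios were −0.06 ± 0.23 and −0.16 ± 0.24. Of the genes around Hps1 on its chromosome, 7 had measured probes, and the 10 probes lay between −0.32 and 0.04 in the strain pair. Of these probes 0 were called, where 1.43% of all measured probes were in either direction.

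In the other lists the member farthest from 0 is named. Of 41 probes of other hydrolases, 14 were above 0 on both strain arrays and 2 below, with a median of 0.044 (0.017 with median centring). Manba, the beta-mannosidase, had 0.48 and 0.46 (mean 0.47, SD 0.01), or 1.39-fold, the largest there. The diet ratio farthest from 0 was that of its other probe, A_52_P584154, at 0.11 ± 0.06, next to Ctsk at 0.11 ± 0.13. That probe had a strain ratio of 0.11 ± 0.09, smaller than the first. Among 37 probes of other membrane and sorting proteins, Cln6 (−0.22 ± 0.07, strain) and Lamp5 (0.12, diet) lay farthest out.

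Of 24 probes of other proton pump subunits, 0 were above and 6 below 0 on both strain arrays, with Atp6v1g2, the brain form of its subunit, at −0.21 ± 0.08 (0.08 in the diet pair). Their median was 0.012, and −0.093 with median centring. Of 57 probes of other autophagy genes, a probe of Atg4d, a protease that frees ATG8 proteins, had the strain ratio farthest from 0. It was −0.67 and −0.34 (mean −0.51, SD 0.24). The other Atg4d probe, A_52_P526750, did not share this, at 0.09 ± 0.13, so no direction is given for the gene. Atg10 had the largest diet ratio, 0.11. Among 28 probes of nutrient sensing genes and TFEB relatives, Rraga had −0.20 ± 0.03 (strain) and Mitf 0.17 ± 0.36 (diet). The BEACH domain family of Lyst was covered by 3 of its 8 listed relatives, whose 8 probes had strain ratios from −0.18 to 0.19 (Wdfy3, 0.19 ± 0.24) and diet ratios down to −0.12 (Nsmaf). None of these probes was past 1.5-fold on both arrays with the same sign. A probe of Gabarapl1, A_52_P633410, was past it with opposite signs, as the Grn probe was, at 0.83 and −0.84 in the diet pair and 0.85 and −0.98 in the strain pair (named after its values were seen).

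Transcripts of the cell types in the tissue were read beside these genes. All 6 neuron marker genes were measured, with 14 probes and a strain median of −0.025. Microglia, which are rich in lysosomes, had 10 of 11 marker genes on the array and 15 probes. Of these probes, 6 were above and 6 below 0 on both strain arrays (median −0.012). On both diet arrays 8 were above and 1 below (median 0.047, and 0.18 with median centring). The macrophage markers Cd163, Mrc1, Lyve1 and F13a1 had 5 probes, all above 0 on both strain arrays, with a median of 0.14 (0.74 with processed signals), Mrc1 at 0.56 ± 0.10 and F13a1 at 0.61 ± 0.04. Astrocyte markers had a strain median of 0.25 over 8 probes, with Gfap at 0.55 ± 0.22, and a diet median of −0.11. With median centring the astrocyte diet median was 0.08, where that of all probes was 0.06, so its sign depends on the scaling. The strain ratios of the astrocyte probes ran from −0.06 to 0.55, with 5 probes above 0 on both arrays and 1 below. Oligodendrocyte markers had a strain median of 0.11 and −0.02 with median centring, and choroid plexus markers −0.14. The oligodendrocyte probes ran from −0.37 to 0.24, with 4 above 0 on both strain arrays and 1 below. In these lists 0 probes were called in either pair. Their part in the strain ratios of Glb1 and the other hydrolases was not tested.

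Of the marker lists, that of kidney, a tissue that whole brain should lack, held the only called probes. In the diet pair 8 of 12 kidney probes were called higher in WME, where 0.0563% of all measured probes were (median 1.19), led by Kap, an androgen-regulated kidney protein, at 4.44 ± 0.92. In the strain pair 4 of 11 were called lower in SAMP8, where 0.52% of all measured probes were, with Kap at −3.00 ± 0.07. The 58 member probes had diet ratios within 0.1 of 0 apart from the bright Grn probe, and the part of kidney transcripts in the member ratios was not tested.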

How the data were processed

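Whole brain RNA of 3 groups was read on 4 arrays of 1 slide. Per the file headers, the deposited scanner files hold the median intensity and local background intensity of each spot, and processed intensities with their log10 ratio of red over green. The authors used Agilent Feature Extraction 11.0.1.1, per the submitters' processing notes. The series table deposited by the authors equals log2 of the red over green processed signals (largest difference 5e-09), with column medians of −0.016, 0.0069, −0.0016 and 0.013, not turned for dye. The deposited flags for background, saturation and outliers were used as given.

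Median intensities were corrected with normexp (offset 50, which pulls dim ratios towards 0) and normalised by loess in limma 3.58.1 (R 4.3.3), control spots having weight 0. Outlier spots (105 to 123 per array of 43379) were left out, and spots of a probe averaged. Ratios were turned for dye and averaged over 2 arrays. Signals per channel were also scaled with Aquantile. Between 81.4% and 85.6% of probes were well above background per channel, and 0 spots were saturated. The number of arrays limits the precision. A probe was measured when well above background in at least 1 RNA on both arrays. The steps were tested on simulated arrays.

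Probes were named through RefSeq accessions in a table of GRCm38.p6, which also gave the order of neighbouring genes, and promoter windows are RefSeq's in that assembly. The headers name another build for the array, and no coordinates were taken from the array files. Of the 41174 probes, 23366 were named and 17808 were not. The members and lists were chosen with earlier results of these data known. Lyst, called probes, the highest and lowest probe of each class and genes with probes 0.5 or more apart are given in full. Of other lists, called members or else the member farthest from 0 are named, and the other genes were chosen after their values were seen. Alternatives were processed signals, the series table, median centring, an offset of 10, both RNAs above background, no filter on dim probes, each array left out, folds of 1.3 and 2, and the brightest probe per gene.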

Additional observations from a re-analysis of the deposited data

How the results depend on the processing

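The counts of 0 called member probes in the diet pair and 1 in the strain pair were the same with processed signals, the series table, median centring, an offset of 10, both RNAs above background, no filter on dim probes, folds of 1.3 and 2 and the brightest probe per gene. Leaving out an array gave 1 to 1 called in the diet pair and 2 to 3 in the strain pair, with no share over all probes counted for a single array. The median strain ratio of 0.019 became −0.034 with median centring and 0.022 to 0.085 with an array left out, and the median diet ratio of −0.002 became 0.178 with median centring and −0.038 to 0.054 with an array left out. Median centring takes out no trend with intensity, and which scaling is nearer to the RNA was not tested. Of the ratios of single named probes, 15 moved by over 1 SD, 12 of them with median centring and 3 of them those of Lyst with processed signals, the series table and an offset of 10. Leaving out 1 of 2 arrays cannot move a mean by over 1 SD, and the filters on dim probes left these values as they were, so neither bears on their stability. No paired analysis was possible because each group holds 1 RNA and the arrays of a pair are dye swaps of it. Dim probes such as that of Lyst are limited by background correction, and no spread between mice can be had.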
